A study of Mus musculus with 6 samples.

Results

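The genes described here encode proteins that act in the breakdown of fibrin and matrix or in coagulation. These are the plasminogen activators Plat and Plau, the receptor Plaur, the inhibitors Serpine2 and Serpinb2, and the coagulation regulators F3 and Thbd. They were chosen by gene name, and these 7 genes are a small part of the 55357 genes in the table. Their mRNA was measured by RNA-seq in cultured mouse cortical astrocytes, in 3 cultures transfected with a plasmid that expresses FLAG-tagged BRAF K499E from the CMV promoter (KE) and in 3 nontransfected cultures (NT). K499E is a constitutively active form of the kinase BRAF found in RASopathies, and the labels give 48 hours from transfection to harvest. According to the supplemental methods, astrocytes were prepared from C57BL/6 embryos, shaken after the first week and replated in a B-27 medium with HB-EGF, a ligand of the EGF receptor, which both groups would share. The plasmid is present in KE only, and no culture with an empty plasmid or BRAF WT was analysed here, so transfection and BRAF KE cannot be told apart in any difference below. The CMV promoter is not specific to astrocytes. The labels do not say whether the replicates came from separate animals or platings, so p-values measure the spread between these cultures, which may be technical.

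Plasminogen is a circulating zymogen that tissue-type plasminogen activator (tPA, the product of Plat) and urokinase (uPA, the product of Plau) cleave to plasmin. uPA works mainly at the cell surface, where the receptor uPAR (the product of Plaur) holds it, while tPA is also released in the brain, where it acts on synaptic receptors and on the vessel wall. Serpins stop both enzymes by forming covalent complexes that are then taken up by clearance receptors. Tissue factor (the product of F3) starts coagulation and is made by astrocytes around vessels, and thrombomodulin (the product of Thbd) turns thrombin from a clotting enzyme into an activator of protein C.

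The deposited values are gene counts divided by DESeq2 size factors, called normalized counts here, which sum to between 30472429 and 30895529 in the 6 cultures. The approximate depth lay between 24500000 and 34100000 reads, with the lowest in KE replicate 2. Braf, the transfected gene, averaged 36979 ± 3464 in KE against 894 ± 73.1 in NT (SD, n = 3). Of 9 astrocyte markers, the one with the highest counts was Slc1a3, a glutamate transporter, at 47360 ± 1070 in KE and 39859 ± 1757 in NT (SD, n = 3), and the lowest was S100b, a calcium-binding protein, at 11.8 to 31.5 in the 6 cultures. Log2 of the normalized count plus 1 was compared with limma in the 15280 genes with a mean of at least 10, and all 7 genes passed this filter. The difference KE minus NT on that log2 scale is given as log2FC, and genes with a Benjamini-Hochberg adjusted p-value under 0.05 are called. Of the tested genes, 51.3% were called, 25.3% with higher and 26.0% with lower values in KE, so a call by itself says little about a gene.

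In KE cultures, mRNA of uPA was 5.43-fold lower, while mRNA of tissue factor and of the inhibitor protease nexin-1 (the product of Serpine2) was moderately higher. F3, Serpine2 and Plat were called higher and Plau and Plaur lower, with Plat and Plaur close to the threshold, and Serpinb2 and Thbd were not called. Thus 5 of the 7 genes were called where 51.3% of all tested genes were, which is no sign of anything particular to the 7, and the median log2FC of the 7 was 0.05 beside 0.0018 over all tested genes. In 5 of the 7 genes every KE culture lay on 1 side of every NT culture, which was so in 59.9% of all tested genes. A called log2FC of -1 or lower was found for Plau, and for 5.69% of the tested genes. With 3 cultures against 3, the smallest two-sided p that an exact permutation test allows for 1 gene is 0.1, which was reached by the 5 called genes.

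**Figure D1:**
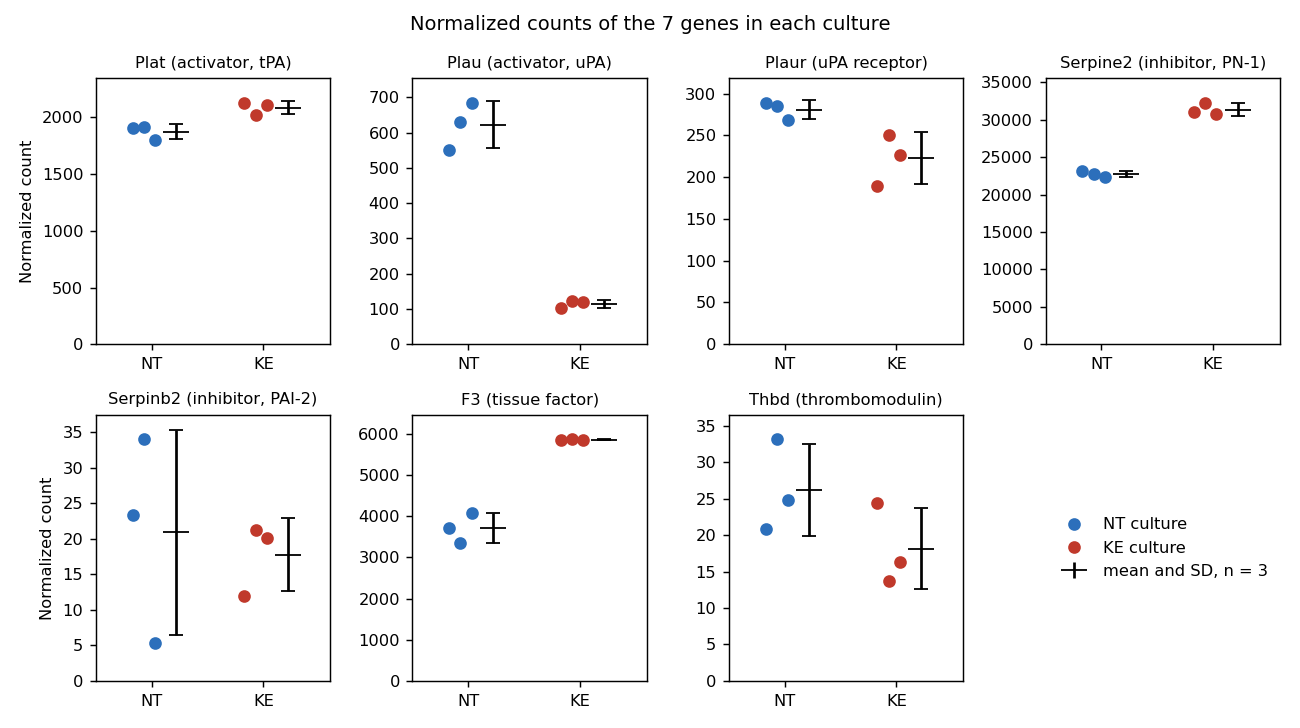
Normalized counts (vertical axes, from 0) of the 7 genes in the 3 NT and the 3 KE cultures, with 1 point for each culture and the mean and SD (n = 3) beside the points. Plau is at most 121 in KE and at least 551 in NT, F3 and Serpine2 are higher in every KE culture, and the points of Serpinb2 and Thbd overlap between the groups.

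Plat (ENSMUSG00000031538) maps to chromosome 8 of GRCm39 (plus strand, bases 23247709 to 23272871). It had normalized counts of 2131, 2019 and 2106 in KE replicates 1, 2 and 3 and 1909, 1916 and 1801 in NT replicates 1, 2 and 3. Every KE culture was higher than every NT culture, but the gap between the groups was narrow. The means were 2085 ± 58.9 and 1875 ± 64.4 (SD, n = 3), and the log2FC was 0.15 ± 0.06 (SE), with a limma adjusted p = 0.0495. This call is a weak one, since it was lost in 7 of 14 alternatives, with adjusted p from limma between 0.0440 and 0.168. Leaving out any single culture other than KE replicate 2 ended it, with log2FC between 0.12 and 0.18 when each culture was left out in turn.

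Plau (ENSMUSG00000021822) maps to chromosome 14 of GRCm39 (plus strand, bases 20886722 to 20893453). It had normalized counts of 102, 121 and 120 in KE replicates 1 to 3, against 551, 631 and 685 in NT replicates 1 to 3. The lowest NT culture was thus far above the highest KE culture. The means were 115 ± 10.8 and 623 ± 67.3 (SD, n = 3), and the log2FC was -2.43 ± 0.12 (SE), with a limma adjusted p = 6.8e-08. Among all tested genes, 3.15% had a larger absolute log2FC. The call held in all 14 alternatives, with log2FC between -2.51 and -2.34.

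Plaur (ENSMUSG00000046223) maps to chromosome 7 of GRCm39 (plus strand, bases 24161875 to 24175394) and differed far less than its ligand Plau. The KE cultures had normalized counts of 190, 251 and 227 and the NT cultures 289, 286 and 268. The groups did not overlap, although KE replicate 2 came close to the lowest NT culture. The log2FC was -0.34 ± 0.13 (SE), with a limma adjusted p = 0.0396. It was no longer called in 7 of 14 alternatives, among them leaving out any 1 culture other than KE replicate 2, with adjusted p from limma between 0.0197 and 0.156.

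Among the inhibitors, Serpine2 was by far the more abundant. Serpine2 (ENSMUSG00000026249) maps to chromosome 1 of GRCm39 (minus strand, bases 79763323 to 79839144) and encodes protease nexin-1, also called glia-derived nexin, which inhibits thrombin, uPA and tPA. The KE cultures had normalized counts of 31038, 32295 and 30741 and the NT cultures 23216, 22705 and 22392. All KE cultures were above all NT cultures, and the cultures of a group lay close together. The means were 31358 ± 825 and 22771 ± 416 (SD, n = 3), and the log2FC was 0.46 ± 0.05 (SE), with a limma adjusted p = 3.8e-05. Of the tested genes, 99.4% had a lower mean normalized count, not corrected for length.

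Serpinb2 (ENSMUSG00000062345) maps to chromosome 1 of GRCm39 (plus strand, bases 107428593 to 107463208) and encodes PAI-2, an inhibitor of uPA. It was low, with normalized counts of 11.9, 21.2 and 20.2 in KE and 23.3, 34.0 and 5.39 in NT. NT replicates 2 and 3 were the highest and the lowest of all 6 cultures, so the groups overlapped fully. The log2FC was 0.05 with a 95% confidence interval from -1.18 to 1.29 (adjusted p = 0.944 from limma), which contains both a doubling and a halving. The mean of the counts was lower in KE, at 17.8 against 20.9, so the log2FC and the ratio of means differ in sign. The sign of the log2FC also turned without NT replicate 3 (-0.68), KE replicate 2 (-0.089) or KE replicate 3 (-0.055) and with a pseudocount of 5 (-0.014).

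F3 (ENSMUSG00000028128) maps to chromosome 3 of GRCm39 (plus strand, bases 121516610 to 121528820) and rose in KE. The KE cultures had normalized counts of 5861, 5869 and 5858 and the NT cultures 3717, 3346 and 4088. The 3 KE cultures lay almost on 1 value, well above the highest NT culture. The means were 5863 ± 5.78 and 3717 ± 371 (SD, n = 3), 1.58-fold apart, and the log2FC was 0.66 ± 0.07 (SE), with a limma adjusted p = 1.8e-05. The call held in all 14 alternatives, with log2FC between 0.59 and 0.73.

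Thbd (ENSMUSG00000074743) maps to chromosome 2 of GRCm39 (minus strand, bases 148216045 to 148250201) and was near the lower end of the tested genes. The KE cultures had normalized counts of 24.4, 13.8 and 16.3 and the NT cultures 20.8, 33.1 and 24.8. KE replicate 1 lay among the NT values, so the groups overlapped. The log2FC was -0.52 with a 95% confidence interval from -1.23 to 0.19 (adjusted p = 0.199 from limma), with -0.74 to -0.35 when each culture was left out (-0.35 without NT replicate 2), and it was not called in any alternative that gave it a value. Sstr4, a somatostatin receptor gene that overlaps it on the other strand, had 1.25 to 1.81 normalized counts in KE and 7.65 to 8.27 in NT, and whether its reads entered the Thbd values was not tested.

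Because longer transcripts give more reads, levels of different genes were compared per kilobase. With the merged exons of Gencode vM39 as length, the NT levels per kilobase were 1849 ± 33.8 for Serpine2, 1200 ± 120 for F3, 269 ± 9.24 for Plat, 243 ± 26.2 for Plau, 70.3 ± 2.86 for Plaur, 7.36 ± 5.09 for Serpinb2 and 3.59 ± 0.862 for Thbd (SD, n = 3). In NT, the levels per kilobase of Plat and Plau overlapped between cultures, as did those of Serpinb2 and Thbd. In KE, the levels per kilobase of Serpine2, F3 and Plat were 2546 ± 67.0, 1892 ± 1.87 and 299 ± 8.45 (SD, n = 3), in the same order. Plau, at 44.6 ± 4.22, was below Plaur, at 55.7 ± 7.73, in KE, with the highest Plau culture at 47.3 and the lowest Plaur culture at 47.5 normalized counts per kilobase. Serpinb2 and Thbd followed at 6.26 ± 1.79 and 2.48 ± 0.761. Merged exons overstate the length of genes with many annotated transcripts, of which Serpine2 has 36. With the length of the single transcript marked as canonical, a choice made after the data were seen, the order within each group did not change, but Serpine2 reached 10304 ± 188 and Plat 724 ± 24.9 per kilobase in NT, and Plat no longer overlapped Plau at 265 ± 28.6.

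The balance between both activators shifted with Plau. Per kilobase of merged exons, Plat was 7.68, 6.13 and 6.44 times the level of Plau in KE replicates 1, 2 and 3, and 1.27, 1.12 and 0.968 times in NT replicates 1, 2 and 3. The groups did not overlap, with Plat well above Plau in KE and both at similar levels in NT on this scale. The level of Serpine2 per kilobase was 8.25, 9.06 and 8.26 times that of Plat in KE and 6.89, 6.71 and 7.04 times in NT, a smaller shift without overlap. These ratios change in proportion with the length chosen, while their change between groups does not.

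**Figure D2:**
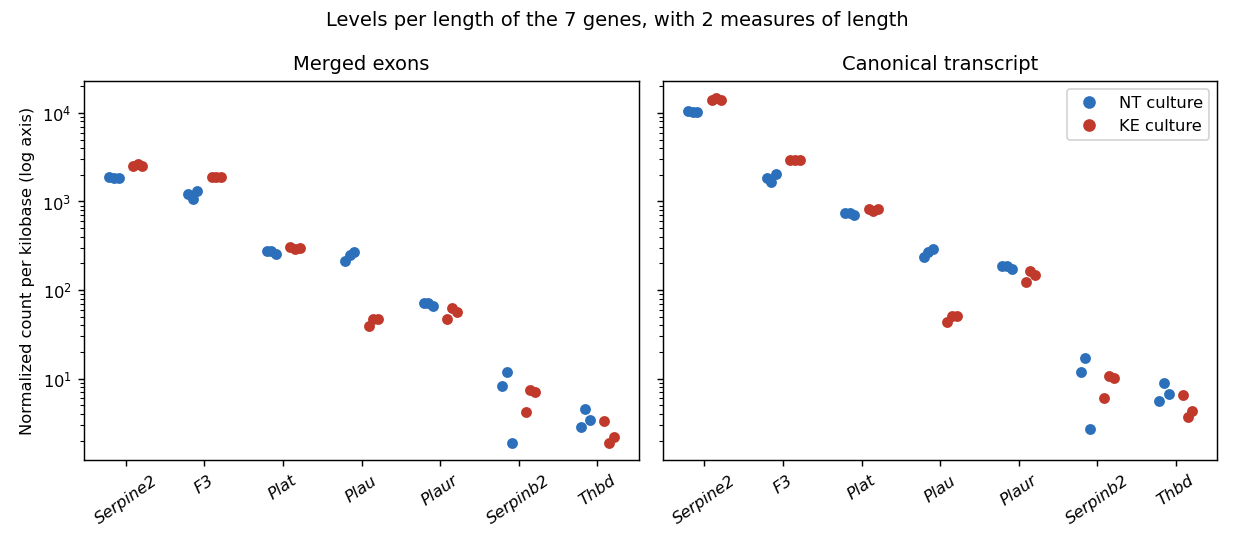
Normalized count per kilobase (log axis) of the 7 genes in each NT and KE culture, with merged exons (left) or the canonical transcript (right) as length. With both lengths Serpine2 is highest and F3 second, and Plau lies above Plaur in NT and below it in KE.

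Promoter sequences were looked up in a RefSeq table on GRCm38.p6, an older build than that of the gene coordinates above, and 4 of the 7 genes matched: F3, Plaur, Serpine2 and Serpinb2. Plat, Plau and Thbd had no entry. The 250 bases before the start of F3 (chr3:121723287-121723536, plus strand), Plaur (chr7:24462233-24462482, plus strand) and Serpine2 (chr1:79858666-79858915, minus strand) are shown because these 3 genes were called, in different directions. Capitals mark TGANTCA, where N is any base. This is a looser form of TGACTCA and TGAGTCA, the letters bound by AP-1, a factor that acts downstream of ERK.
F3: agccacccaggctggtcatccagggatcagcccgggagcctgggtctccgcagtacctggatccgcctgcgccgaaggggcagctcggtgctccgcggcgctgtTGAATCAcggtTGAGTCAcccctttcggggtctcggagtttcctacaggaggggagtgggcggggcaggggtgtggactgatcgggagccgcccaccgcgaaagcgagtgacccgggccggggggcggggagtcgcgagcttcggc
Plaur: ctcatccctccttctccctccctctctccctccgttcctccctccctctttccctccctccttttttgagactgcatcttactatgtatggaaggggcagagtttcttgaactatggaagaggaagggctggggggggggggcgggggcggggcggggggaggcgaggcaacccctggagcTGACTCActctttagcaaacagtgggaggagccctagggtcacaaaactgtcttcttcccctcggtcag
Serpine2: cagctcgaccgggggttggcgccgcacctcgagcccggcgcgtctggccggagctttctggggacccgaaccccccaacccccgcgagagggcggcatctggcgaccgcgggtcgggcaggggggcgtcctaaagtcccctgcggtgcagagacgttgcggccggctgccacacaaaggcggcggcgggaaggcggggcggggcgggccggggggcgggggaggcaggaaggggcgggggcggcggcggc
TGANTCA, which reads the same on both strands, was found 2 times in F3, beginning 146 and 135 bases before the start, 1 time in Plaur, beginning 69 bases before it, and 0 times in Serpine2. Serpinb2 has a pair of overlapping windows in the table, both with the same match. That match and the F3 match at 146 bases are TGAATCA, which only the looser form admits. Of all 32851 windows of this length in the table, 6.75% hold TGANTCA with any base at N. The match was thus found in a gene that was higher in KE, in one that was lower and in one that was not called, and a match is not a binding site. The GC box GGGCGG, searched on both strands and counting overlapping copies, was found 3 times in F3, 3 times in Plaur and 6 times in Serpine2, and 32.7% of all windows hold at least 1 copy. TGACGTCA (CRE, 1.55% of windows) was found in none of the 4 genes, and TATAAA (12.4% of windows, both strands) in Serpinb2.

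Other genes of the plasminogen system were compared as a list of 16, of which 11 were tested. Plasminogen mRNA was near 0 in these cultures, with Plg between 0 and 1.81 normalized counts, and the plasmin inhibitor Serpinf2 between 0 and 1.98. Of the 11, 4 were called higher in KE and 1 lower, beside 25.3% and 26.0% of all tested genes, with a median log2FC of 0.16. The genes called higher, named here after their values were seen, were Vldlr, S100a10, Plgrkt and Anxa2. Vldlr, a receptor that takes up complexes of serpins with their proteases, rose from 1523 ± 30.1 to 3510 ± 66.4 (SD, n = 3), and the log2FC was 1.20 (adjusted p = 3.2e-08 from limma). S100a10 and Anxa2, which form a cell surface complex that binds plasminogen, had log2FC of 0.74 and 0.21, and Plgrkt, a plasminogen receptor, one of 0.43. The gene called lower was Mrc2, which encodes a collagen receptor that associates with uPAR, with a log2FC of -0.91. Among the 3 genes of the list with the highest normalized counts, which were not called, A2m, a broad protease inhibitor, had a log2FC of -0.16, Eno1 one of 0.16 and the clearance receptor Lrp1 one of -0.04. Eno1 has near-identical copies in the genome, so its value is uncertain.

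A second list held 17 genes of coagulation, of the protein C pathway and of thrombin signaling, of which 8 were tested, 1 called higher and 6 lower, beside 25.3% and 26.0% of all tested genes, with a median log2FC of -0.78. F2, F7 and F10, which encode prothrombin and factors of the clotting cascade, were at most 1.98 normalized counts in any culture. Procr, the endothelial protein C receptor, which works with thrombomodulin, was 118, 124 and 135 in KE and 55.2, 53.5 and 43.2 in NT (log2FC 1.30, adjusted p = 9.5e-05 from limma). Tfpi, the inhibitor of the complex that tissue factor forms, was 19.3, 30.3 and 25.2 in KE and 135, 134 and 107 in NT (log2FC -2.30, adjusted p = 8.1e-06 from limma). Tissue factor mRNA was thus higher and that of its inhibitor lower in every KE culture. F5, a coagulation cofactor, was low and had a log2FC of -2.25 (standard error 0.45). The thrombin receptors F2r (PAR1) and F2rl2 (PAR3) fell, with log2FC of -0.61 and -1.96, as did F2rl1 (PAR2), which the tissue factor complex can cleave, with a log2FC of -0.95. Pros1, protein S, had a log2FC of -0.20.

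**Figure D3:**
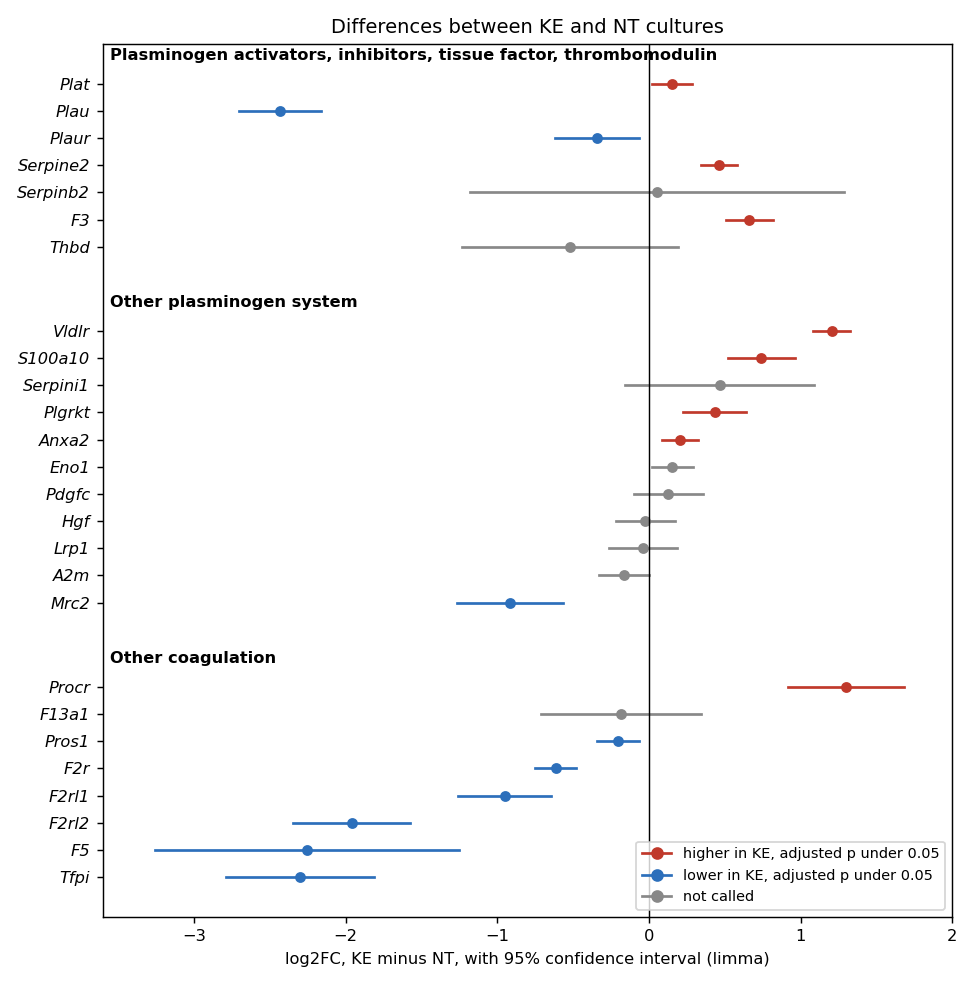
Log2FC, KE minus NT, with its 95% confidence interval from limma, for the 7 genes and for the tested genes of the lists of other plasminogen system genes (11) and other coagulation genes (8). Red and blue mark genes called higher and lower in KE, gray those not called. Plau, Tfpi, F5 and F2rl2 lie farthest to the left, and Vldlr and Procr farthest to the right.

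Markers of several cell types also differed between KE and NT. All 11 microglia and macrophage markers used were tested and called lower in KE, with log2FC from -4.07 to -0.88 and none at 0. Their summed normalized counts were 2500 to 3877 in KE and 29228 to 33783 in NT, 10.8-fold lower in the mean, beside the 5.43-fold lower Plau. C1qa, the marker with the highest mean count, had a log2FC of -3.12. Within NT, replicate 3 had the highest Plau (685) and the lowest marker sum (29228), while within KE, replicate 2 had the highest of both (121 and 3877). In bulk RNA, fewer cells of a type and less RNA per cell cannot be told apart, and the part of these cells in the difference of Plau, Plaur, Tfpi or F5 was not tested. The 9 astrocyte markers, by contrast, summed to 149077 to 151319 in KE and 107987 to 113021 in NT, 1.37-fold higher in the mean, beside the 1.38-fold higher Serpine2 and 1.58-fold higher F3. Of these markers, 6 were called higher, among them Gfap (log2FC 0.87), and 1 lower, Gja1 (-0.46). Aqp4 (0.02) and S100b (-0.60) were not called, so the sum does not stand for every marker. The part of astrocytes in the rise of Serpine2 and F3 was not tested.

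Thbd, Procr and Tfpi are also genes of endothelium. Of its 8 markers, Cdh5 (0 to 5.94), Cldn5 (0 to 2.07), Tie1 (0 to 2.44), Emcn (0 to 3.37) and Tek (1.04 to 12.1 normalized counts) were below the filter. Pecam1, at 16.8 to 36.3, and Kdr, at 14.5 to 27.6, were read in every culture at about the level of Thbd, with log2FC of -0.86 and -0.49 (adjusted p = 0.0200 and 0.201 from limma). The summed endothelial list was 243 to 304 in KE and 339 to 497 in NT, most of it Flt1 (log2FC -0.62), and 2 of its 3 tested genes were called lower. Mesenchymal and pericyte markers, 8 of 8 tested with 3 called higher and 3 lower, summed to 2755 to 2878 in KE and 3106 to 3985 in NT, where Acta2 (log2FC -1.34) alone fell by more counts in the mean than the sum did. Anpep and Dcn were also lower (-2.36 and -0.65), Rgs5, Lum and Col1a2 higher (0.79, 0.39 and 0.37), and Pdgfrb and Col1a1 were not called. Oligodendrocyte lineage markers summed to 28287 to 33119 in KE and 35705 to 35935 in NT, most of it Olig1 and Olig2. Of 7 tested, 1 was called higher, Cnp at 0.38, and 5 lower, with Mbp at -1.89 and Olig1 at -0.20. Neuronal markers summed to 6477 to 6652 in KE and 8466 to 9171 in NT, 2 higher and 2 lower of 6 tested, with Nefl at 1.73 and Map2 at -0.51. The part of these cells in the values of Thbd, Plat and Plaur was not tested.

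**Figure D4:**
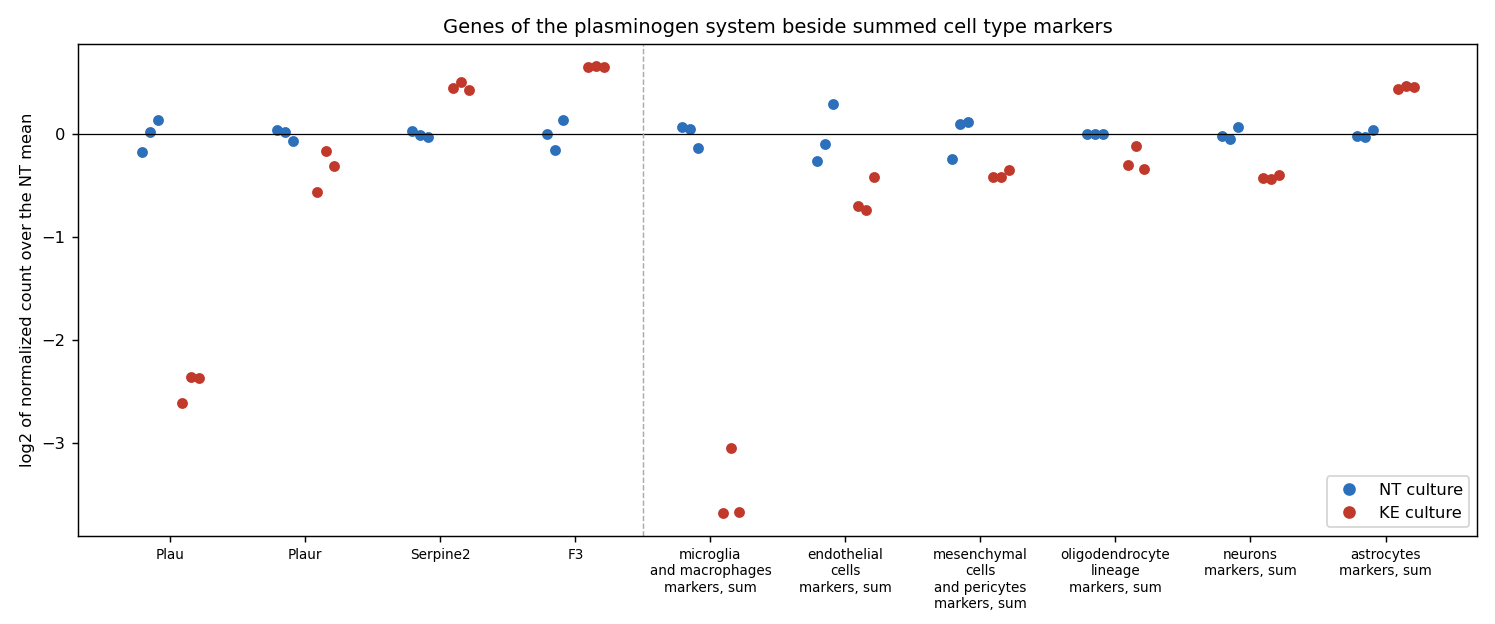
Log2 of the normalized count over the mean of NT for Plau, Plaur, Serpine2 and F3 and for the summed markers of 6 cell types, with 1 point for each culture. Plau and the microglia and macrophage sum lie more than 2 units lower in KE, and Serpine2, F3 and the astrocyte sum lie above NT.

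Genes with the most similar pattern were sought among the other tested genes with a mean of at least 100 (12071, or 12072 for Serpinb2 and Thbd, whose own means are below it), by the Euclidean distance between log2 values over the 6 cultures, each centered on its own mean. Closest to Plau were Tgfbi (distance 0.27, log2FC -2.42) and Abcc3 (0.38, log2FC -2.38). Closest to F3 were Glipr2 (0.073, log2FC 0.65) and Dusp14 (0.099, log2FC 0.67). Serpine2 lay nearest Lrrc41 (0.042) and Zfyve1 (0.044), Plat nearest Wdr44 (0.052) and Glt8d1 (0.061), and Plaur nearest Rttn (0.058) and Aldh16a1 (0.085). The low genes had looser neighbors, Zbtb34 (0.12) and Glcci1 (0.18) for Thbd, and Dnhd1 (1.19) and Ifi207 (1.20) for Serpinb2. All points share the same 6 libraries and the same division into KE and NT, so closeness mostly means a similar difference between the groups.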

How the data were processed

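RNA-seq of 3 KE and 3 NT cultures was analysed, with groups and replicate numbers taken from the sample titles. The deposited table covers 55357 genes and holds a normalized signal per culture, which the authors made from gene counts from Salmon, divided by DESeq2 size factors, after trimming with Trim Galore and alignment with STAR, as named in the submitters' processing notes. The supplemental methods give Gencode vM28 on GRCm39 for mouse, while the notes list GRCh38. Size factors assume that most genes do not change, and they remove the depth, so an approximate depth was taken from each total and its most frequent low value. Of the low values, at most 79.9% were whole multiples of it to within 0.1, so reads were not recovered and no count test was run.

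limma 3.58.1 (R 4.3.3) was run on log2(normalized count + 1) with group as the factor and with a variance trend, on the 15280 genes whose mean reached 10. Tests were two-sided, with Benjamini-Hochberg adjustment over all tested genes. This scale understates changes of low genes. The library kit was stranded, but how strand was used in counting is not stated. Transcripts antisense to Plau, Serpine2, Serpinb2, F3 and Thbd are annotated, and Serpinb10 overlaps Serpinb2 on the same strand but had at most 0.952 normalized counts. On the other strand, Sstr4 at Thbd had 1.25 to 1.81 in KE and 7.65 to 8.27 in NT, and Gm43823 at F3 had 11.3 to 15.4 in KE and 5.73 to 13.4 in NT.

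Coordinates and lengths came from Gencode vM39 on GRCm39, which holds 54749 of the 55357 identifiers. The 7 genes, the lists and the motifs were chosen with earlier results of these data known, and the lists from general knowledge. Named genes were the 7 genes, Braf, genes of both pathway lists called with an absolute log2FC of at least 1, the 3 most abundant genes of each pathway list, the most abundant marker of each cell type and the 2 nearest genes by pattern. Other list genes were named after their values were seen. Alternatives were other pseudocounts, filters and scalings, limma without the trend, the replicate number as a block and leaving out each culture. The fits were tested on simulated data. Some genes are not reported here, and 1 was left out of the plasminogen list and 1 out of the microglia markers, with their counts and sums, for reasons unrelated to their values.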

Additional observations from a re-analysis of the deposited data

How the results depend on the processing

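Of the 7 genes, Plau, Serpine2 and F3 kept their direction and their call in all 14 alternatives. Plat was no longer called with no filter on low genes (log2FC 0.15, adjusted p = 0.0804 from limma) or without the trend (0.15, adjusted p = 0.0789), and leaving out each culture gave 0.12 to 0.18. Plaur was no longer called with no filter (-0.34, adjusted p = 0.0531) or quantile normalization (-0.25, adjusted p = 0.113), and leaving out each culture gave -0.43 to -0.23. Quantile normalization moved the median of all genes to 0.029. Serpinb2 turned to -0.014 with a pseudocount of 5 and ranged from -0.68 to 0.55 when each culture was left out, and it was never called. The count of the 7 genes called lower was then 1 with no filter or with quantile normalization, and 1 to 2 over the left-out cultures. The causes were not tested. Serpinb2 and Thbd have no value with a mean of at least 50, since both are below it.

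With the canonical transcript as length, chosen after the data were seen, Plat was 16.6 times Plau in KE and 2.76 times in NT, which follows from the lengths. The count of other plasminogen system genes called lower was 2 with no filter on low genes, against 1, with the addition of Serpinf2, which is listed at 0 in KE and at most 1.98 in NT. Other counts for both gene lists and for all genes stayed within 1.5 times. Leaving out each culture gave 6776 to 7199 called genes, against 7844 with all.

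The replicate number as a block changed no call of the 7 genes, with 8046 genes called, 7669 of them also without it. The deviations of same-numbered KE and NT cultures correlated across genes with r of 0.059, 0.066 and 0.065, and every culture correlated best with its own number, the other pairs giving -0.050 to -0.010. All these values are small, but the same-numbered pairs were the only positive ones. The labels do not say whether equal numbers were prepared together, so a pairing is not known. The main fit did not pair the cultures. At these depths Serpinb2 and Thbd, with means near 20, are the least precise of the 7.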

Other observations

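The KE cultures lay close together for F3, which was singled out after its values were seen. The SD over the 3 KE cultures was 5.78 normalized counts, where counting error alone at the approximate depth corresponds to an SD of 77.3, so this closeness is no measure of the precision of F3. No test was made of it, and 5 other tested genes of 15280 had as low a coefficient of variation in KE (0.0986% for F3). The standard error that limma gave F3, 0.07 on the log2 scale, draws on the spread of all tested genes and on NT, and not on this spread alone.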
